A study of Mus musculus with 101 samples.

Results

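The 17 most highly methylated of 85 columns of Diversity Outbred mouse embryonic stem cells were set against 24 columns of intermediate methylation. Each column is called a line here, although the design text counts 80 lines. B1dB37 (intermediate) and B1dB37N (under 15%) differ in name only by a final N, and whether they are 1 line is not given. The cells came from an outbred mouse stock and were all kept in serum with leukaemia inhibitory factor (LIF) plus 2i, the inhibitor pair that holds cells in a naive pluripotent state. No other treatment or genotype is given for any line, so that all groups share this medium. DNA methylation was read by enzymatic methyl sequencing after targeted capture, and the authors deposited 1 average per line for each target region, with a Category that says why the region was on the panel.

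Of 868 target regions, 787 had a value in at least 80% of the 85 columns, and each line's mean over those 787 regions set its group. Highly methylated lines had a mean of 28% or more and intermediate lines had a mean of 15% to under 25%. The highly methylated lines ran between 28.5% and 43.8%, with a median of 31.5%. Intermediate lines ran between 15.01% and 24.4%, with a median of 18.5%. A further 35 lines under 15% served to draw each region's course below the intermediate level, and 9 lines lay between 25% and 28% and were set aside. The lines nearest the upper bound had means of 28.5% (inside) and 27.6% (outside), and those nearest the top of the intermediate band had 24.4% (inside) and 25.1% (outside). At 15%, the nearest lines had 15.01% (inside) and 14.8% (outside).

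Because the lines were chosen by these same values, every difference in methylation between the groups is a description, and no test was made of it. By construction the average region is higher in the highly methylated lines. What the choice of lines does not set is how unevenly the difference is shared out among regions. Differences are given in percentage points, as the mean over highly methylated lines minus the mean over intermediate lines. The name of a line opens with B1, B2, B3A or B3B, and what these stand for is not given. Of the 17 highly methylated lines, 10 were B1, 4 were B2, 1 was B3A and 2 were B3B. Of the 24 intermediate lines, 8 were B1, 5 were B2, 4 were B3A and 7 were B3B.

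In mammals, cytosine methylation at CpG dinucleotides is laid down by DNMT3 enzymes and copied at replication by DNMT1 with UHRF1, and 2i medium is known to lower it across the genome of mouse embryonic stem cells. CpG-rich promoters of broadly used genes are normally free of methylation, whereas promoters of many germline genes and CpG-poor sequence become methylated as the embryo leaves the naive state. Imprinting control regions carry methylation on only one parental copy, held there in early development by the zinc finger protein ZFP57 and its partner TRIM28, so that an intact imprint reads near the middle of the scale in a bulk measurement.

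Promoters of 6 genes are printed to show what sequences with different courses look like. Each is the RefSeq window of 300 bases on GRCm38.p6, the assembly of mm10, with 250 bases before and 50 after the annotated start, read in the direction of the gene. Capitals mark CpGs that have a deposited value in the CpG table. Dnajb1 stayed near 0, Ddx4 stayed low, Dazl and Dpep3 were over 20 points higher in the highly methylated lines, and Hymai (at the Plagl1 locus) and Meg3 lie in imprinted loci.
Dnajb1 (chr8:83607925-83608224, plus strand): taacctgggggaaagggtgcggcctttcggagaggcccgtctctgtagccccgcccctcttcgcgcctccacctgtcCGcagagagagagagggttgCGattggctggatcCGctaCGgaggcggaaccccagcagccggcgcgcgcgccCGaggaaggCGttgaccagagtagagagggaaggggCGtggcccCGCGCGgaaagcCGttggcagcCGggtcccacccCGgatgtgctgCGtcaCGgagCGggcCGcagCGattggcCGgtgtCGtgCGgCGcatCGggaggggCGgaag
Ddx4 (chr13:112652261-112652560, minus strand): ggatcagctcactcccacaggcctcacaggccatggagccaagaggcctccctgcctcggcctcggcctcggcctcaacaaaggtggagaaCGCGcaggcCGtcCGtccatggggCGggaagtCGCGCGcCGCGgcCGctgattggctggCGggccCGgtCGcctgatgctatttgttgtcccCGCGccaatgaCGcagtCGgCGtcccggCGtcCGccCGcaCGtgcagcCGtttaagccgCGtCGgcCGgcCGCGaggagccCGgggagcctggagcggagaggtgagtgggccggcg
Dazl (chr17:50293571-50293870, minus strand): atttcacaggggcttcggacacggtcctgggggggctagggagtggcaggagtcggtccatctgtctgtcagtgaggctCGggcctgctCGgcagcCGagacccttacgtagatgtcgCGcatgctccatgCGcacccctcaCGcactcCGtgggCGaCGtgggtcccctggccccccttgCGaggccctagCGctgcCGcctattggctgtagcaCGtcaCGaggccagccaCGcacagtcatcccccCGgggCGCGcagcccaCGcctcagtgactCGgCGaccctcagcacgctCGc
Dpep3 (chr8:105979370-105979669, minus strand): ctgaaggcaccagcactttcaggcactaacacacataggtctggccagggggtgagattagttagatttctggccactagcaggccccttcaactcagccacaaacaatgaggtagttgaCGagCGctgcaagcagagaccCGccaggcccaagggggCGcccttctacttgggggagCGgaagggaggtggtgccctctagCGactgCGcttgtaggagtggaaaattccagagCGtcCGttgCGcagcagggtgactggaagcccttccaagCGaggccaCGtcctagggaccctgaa
Hymai (chr10:13090595-13090894, plus strand): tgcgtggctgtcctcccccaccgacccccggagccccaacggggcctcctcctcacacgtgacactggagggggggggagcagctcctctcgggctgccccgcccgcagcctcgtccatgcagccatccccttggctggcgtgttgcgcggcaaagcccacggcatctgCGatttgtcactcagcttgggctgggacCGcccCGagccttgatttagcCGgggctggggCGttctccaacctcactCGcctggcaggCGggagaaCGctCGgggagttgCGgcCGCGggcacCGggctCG
Meg3 (chr12:109540746-109541045, plus strand): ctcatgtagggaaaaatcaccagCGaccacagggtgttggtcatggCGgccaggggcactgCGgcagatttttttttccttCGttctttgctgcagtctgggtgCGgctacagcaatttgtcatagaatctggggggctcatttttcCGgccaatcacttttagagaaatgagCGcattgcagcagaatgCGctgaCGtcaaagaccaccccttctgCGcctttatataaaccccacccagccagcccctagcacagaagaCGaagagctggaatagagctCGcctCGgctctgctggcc

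Over the 787 regions the median level was 31.01% in highly methylated lines and 14.8% in intermediate lines. The median difference was 15.2 points, and single regions ran between -1.73 and 38.8 points. Of the 787 regions, 319 were higher by at least 20 points (40.5%), 156 were under 5% in both groups (19.8%), and 23 were lower in the highly methylated lines (2.92%). Of those 23, 22 had under 2% in intermediate lines. The exception, a Cd59a region of the B6J vs 129 Category named after its values were seen, had 4.93% in highly methylated lines and 6.67% in intermediate lines. In 52 regions (6.61%) the lowest highly methylated line lay above the highest intermediate line.

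**Figure D1:**
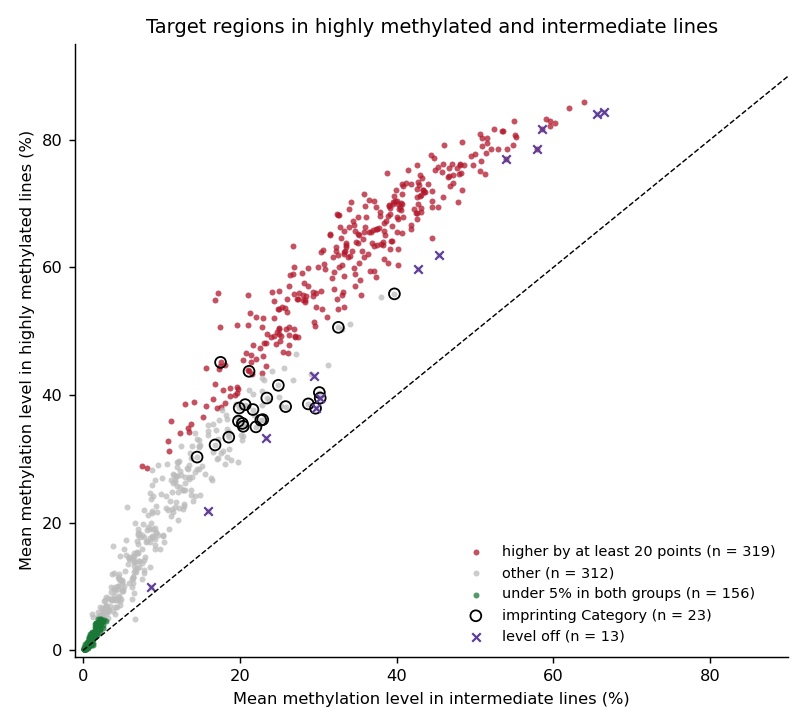
Mean methylation level of each of the 787 target regions in highly methylated lines (y axis, %, 17 lines) against intermediate lines (x axis, %, 24 lines). Points are regions, colours mark those higher by at least 20 points (319) or under 5% in both groups (156), open circles mark the imprinting Category (23), crosses mark regions that level off (13), and the dashed line marks equal levels.

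Within the name groups, the median difference over all regions was 15.1 points among B1 lines, 11.2 among B2 lines, 7.20 among B3A lines with 1 highly methylated line, and 24.2 among B3B lines with 2 highly methylated lines. The line means themselves were further apart in some name groups. They averaged 34.3% in highly methylated and 18.4% in intermediate B1 lines, and 31.8% in highly methylated and 19.7% in intermediate B2 lines. For B3A it was 29.1% in the highly methylated line and 20.2% in intermediate lines, and for B3B 41.3% in highly methylated and 18.1% in intermediate lines. The part of these levels in the differences was not tested.

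Counted over regions, the 2-cell stage Category had the largest median difference of the 11 Categories. These are genes switched on at zygotic genome activation in the mouse. Over its 46 regions the median was 57.6% in highly methylated lines and 27.2% in intermediate lines, a median difference of 26.6 points. Of these, 30 were higher by at least 20 points (65.2%, against 40.5% of all regions), and 10 were under 5% in both groups. Among all kept regions at 20% to under 30% in intermediate lines, where this Category's median lies, the share was 68.5%. The share of 65.2% thus does not set the Category apart from regions near its median level. The median difference of that band was below 26.6 points. The mean of the Category in each line ran between 38.6% and 59.5% in highly methylated lines, with a median of 46.8%, against 19.3% to 36.7% in intermediate lines, with a median of 25.9%. Only the B3A, B2 and B3B subsets moved this Category's difference by more than the spread between highly methylated lines, to 10.7, 17.7 and 37.1 points. Averaged by region from the CpG table, which has CpGs in 596 of the kept regions, this Category still had the largest median difference. It was 24.9 points, ahead of aging_Meer at 17.4 points. Counted over single CpGs, where regions with many measured CpGs weigh more, the order was another. Over the 219 CpGs of the 2-cell stage Category the median was 0.661% in highly methylated lines and 0.606% in intermediate lines, with a median difference of 0.288 points. The largest CpG median was that of the imprinting Category, at 14.5 points over 937 CpGs, against 5.46 points over all 7917 CpGs.

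Of the 14 listed 2-cell stage genes, 3 had a kept region. All 3 were higher by at least 20 points, against 40.5% of all regions and 68.5% of regions at 20% to under 30% in intermediate lines. Zscan4d, of a family that marks the rare 2-cell-like state of mouse embryonic stem cells, had its promoter region (chr7:11165909-11166409) at 56.2% ± 12.1 (SD, n = 16) in highly methylated lines and 24.1% ± 10.3 (n = 20) in intermediate lines. Usp17le, a deubiquitinase gene, had 59.99% ± 11.98 in highly methylated lines and 26.9% ± 9.10 in intermediate lines. Tdpoz3 had 55.8% ± 16.04 in highly methylated lines and 26.96% ± 9.90 in intermediate lines. All 3 belong to families of near-identical copies, so that reads may have been shared among copies and their values are uncertain.

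The same holds for the region with the largest difference of all. The promoter region of Usp17lb (chr7:104842353-104842853) had 35.7% at the lowest, 53.8% at the median and 77.3% at the highest in 15 highly methylated lines, against 5%, 14.3% and 39.3% in 21 intermediate lines. Its difference was 38.8 points, and 14 of the 15 highly methylated lines lay above the highest intermediate line. Its neighbour Usp17la differed by 35.5 points. In the same Category, Abcb5, an ATP-binding cassette transporter, differed by 35.7 points, with 68.3% ± 14.4 (SD, n = 17) in highly methylated lines and 32.5% ± 10.9 (n = 23) in intermediate lines. Kdm4dl differed by 36.1 points, with 16 of 17 highly methylated lines above the highest intermediate line.

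The 12 regions with the largest differences came from 5 Categories and were higher by 34.1 to 38.8 points. Csf1, which encodes the macrophage growth factor CSF-1, had a region (chr3:107758145-107758645, aging_Young) with 56.8%, 68.6% and 89.2% at the lowest, median and highest in highly methylated lines, against 16.3%, 33.4% and 50.8% in intermediate lines. No intermediate line reached the lowest highly methylated line there. The groups were also apart at Cyp1a2, a liver cytochrome P450 (69.1% ± 10.1 in highly methylated lines and 33.96% ± 7.09 in intermediate lines), and at Cpt1c, a carnitine palmitoyltransferase family member of brain (70.5% ± 9.92 in highly methylated lines and 36.5% ± 7.04 in intermediate lines). Lrrc4c, a synaptic adhesion gene, differed by 36.5 points and Wdfy4, needed for cross-presentation by dendritic cells, by 35.6 points, both in the Cancer Category. The remaining 3 of the 12 were Zfp64, Ctag2l1 and Gm36354.

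The Cancer Category followed the 2-cell stage Category, with a median difference of 19.6 points over 139 regions and 69 of them higher by at least 20 points. The germline_Dahlet Category had a median difference of 17.04 points over 115 regions, of which 47 were higher by at least 20 points. For aging_Meer the median difference was 16.01 points over 221 regions (98 higher by at least 20 points), and for B6J vs 129 it was 15.2 points over 73 regions (27 higher by at least 20 points). Lineage-associated regions had a median difference of 9.36 points over 21 regions. The shares for germline_Dahlet (40.9%), aging_Meer (44.3%) and B6J vs 129 (36.99%) lay near the 40.5% of all regions. The aging sets differed among themselves, since aging_Young had a median difference of 4.56 points over 127 regions with 57 under 5% in both groups (44.9%, against 19.8% of all regions).

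**Figure D2:**
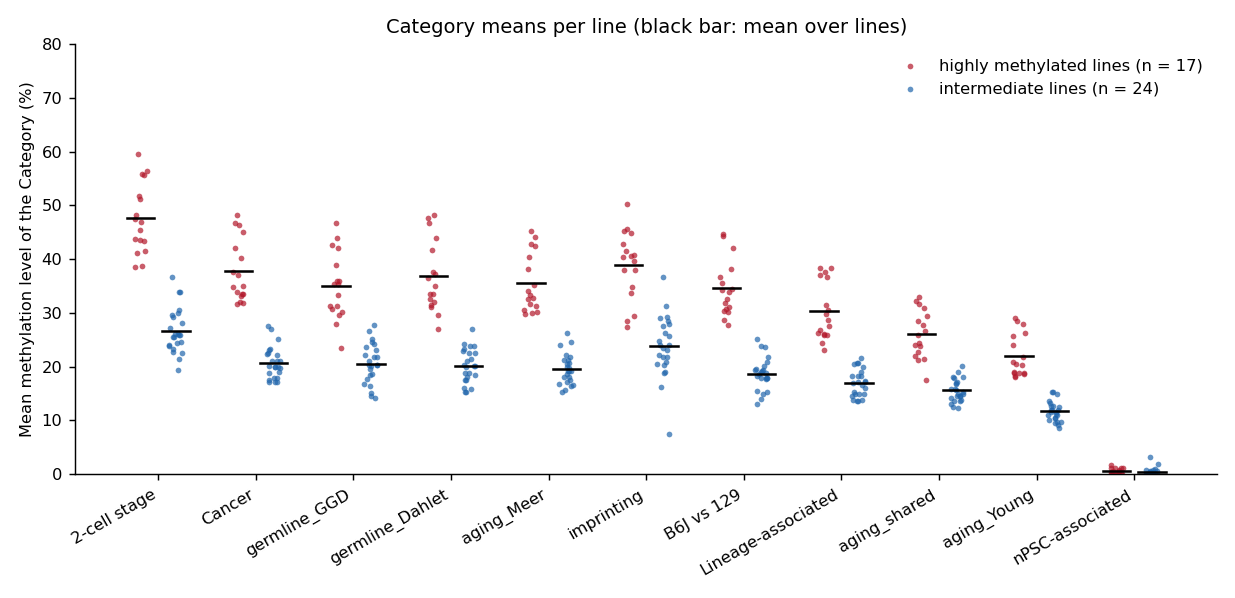
Mean methylation level of each Category in each line (y axis, %), for 17 highly methylated lines (red) and 24 intermediate lines (blue), with the Categories ordered by median difference from left to right. Points are lines and black bars are means over lines; the 2-cell stage Category reaches 59.5% in the highest line, and the nPSC-associated Category stays at or under 3.22% in every line shown.

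Of the germline_GGD Category, a set of 8 germline genes, 2 were higher by at least 20 points (against 40.5% of all regions) and none was under 5% in both groups (against 19.8%). Dazl, an RNA-binding protein of germ cells, had its promoter region (chr17:50293386-50293886) at 33.4%, 46.3% and 62.3% at the lowest, median and highest in highly methylated lines, against 15.7%, 24.2% and 37.3% in intermediate lines. Dazl differed by 21.2 points. Taf7l, an X-linked paralogue of a general transcription factor subunit, differed by 20.2 points (60.4% ± 9.81 in highly methylated lines and 40.2% ± 8.64 in intermediate lines). At the other end, the promoter region of Ddx4, the germ cell RNA helicase Vasa, had 15.9% ± 3.59 in highly methylated lines and 9.77% ± 2.42 in intermediate lines. Tex19.1 had 10.6% ± 6.84 in highly methylated lines and 6.43% ± 3.86 in intermediate lines. Within this Category the differences thus ran between 4.14 and 21.2 points.

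Inside the printed promoters, single CpGs shared the course of their region to different degrees. At Dazl, all 22 measured CpGs were higher in the highly methylated lines, by 11.01 to 27.9 points. At Dpep3, a dipeptidase of testis, the 12 CpGs were higher by 23.99 to 31.99 points. At Ddx4, the 30 CpGs had a mean of 8.62% in highly methylated lines and 5.50% in intermediate lines, with differences of -0.76 to 13.9 points. At Dnajb1, none of 24 CpGs had a group mean above 0.831% in highly methylated lines or 0.908% in intermediate lines.

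Of 30 regions of listed germline genes, 8 were higher by at least 20 points (26.7%, against 40.5% of all regions), none was under 5% in both groups, and the median difference was 13.5 points. The largest difference was at the promoter region of Dnmt3l, the catalytically inactive partner of DNMT3A and DNMT3B, with 54.9% ± 11.9 (SD, n = 17) in highly methylated lines and 28.1% ± 6.87 (n = 24) in intermediate lines. Dpep3 differed by 25.9 points, and Asz1, a piRNA pathway gene, by 22.03 points. Sycp1 differed by 14.6 points and Sycp3 by 13.2 points, both of the synaptonemal complex, and Hsf2bp, a meiotic recombination gene, by 4.14 points. Tet3, a methylcytosine dioxygenase gene and the only one of 10 listed genes of the methylation machinery (a list without Dnmt3l) with a kept region, had 82.6% ± 5.23 in highly methylated lines and 60.2% ± 5.21 in intermediate lines. This Tet3 region was not among the 187 kept regions that overlap a RefSeq promoter window by at least 150 bases.

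The nPSC-associated Category had 3 kept regions, all under 5% in both groups, as were 19.8% of all regions. At Nanog, a homeobox factor of the naive network, the promoter region (chr6:122706796-122707321) had at most 2.56% in highly methylated lines and at most 2.22% in intermediate lines. The Zfp42 (Rex1) promoter region averaged 0.925% in highly methylated lines and 0.973% in intermediate lines. Tbx3 averaged 0.195% in highly methylated lines and 0.138% in intermediate lines. Expression data were not used here, so the cell type label was not checked against markers.

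Of the 8 regions with the lowest mean in highly methylated lines, none exceeded 0.209%. The promoter region of Dnajb1, an HSP40 co-chaperone, had 0%, 0.138% and 0.533% at the lowest, median and highest in highly methylated lines, against 0%, 0.173% and 1.17% in intermediate lines. The others were Pgls (a pentose phosphate pathway enzyme), Tbx3, Tmem170b, Ehmt1 (a histone H3 lysine methyltransferase), Ephb3 (an ephrin receptor), Prpf4b (a splicing kinase) and Ap4s1 (an adaptor subunit). In all 8 the ranges of the groups overlapped. Among lineage transcription factors, Otx2 was at 1.08% ± 0.834 in highly methylated lines and 0.828% ± 0.581 in intermediate lines. Sox17 was at 8.58% in highly methylated lines and 4.63% in intermediate lines, whereas the Pax6 region (chr2:105696060-105696559) reached 83.2% ± 6.46 in highly methylated lines and 59.1% ± 6.005 in intermediate lines. Of 10 regions of these factors, 1 was higher by at least 20 points (against 40.5% of all regions) and 1 was under 5% in both groups (against 19.8%).

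The CpG content of the promoter, which the choice of lines did not use, is given for these classes as a description. Among 187 kept regions that overlap a RefSeq promoter window by at least 150 bases, the 43 that stayed under 5% had a median of 23 CpGs in the window and an observed-to-expected CpG ratio of 0.77. The 65 that were higher by at least 20 points had a median of 8 CpGs and a ratio of 0.39, close to the medians of 7 and 0.38 over all 32851 RefSeq promoters. With fewer than 5 CpGs (21 regions), the median difference was 28.5 points and 18 regions were higher by at least 20 points. With 30 or more CpGs (17 regions), the median difference was 0.31 points and 11 regions stayed under 5%. The panel was picked by the authors, and promoter windows of 1 family can share sequence, so that these are descriptions of the panel.

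**Figure D3:**
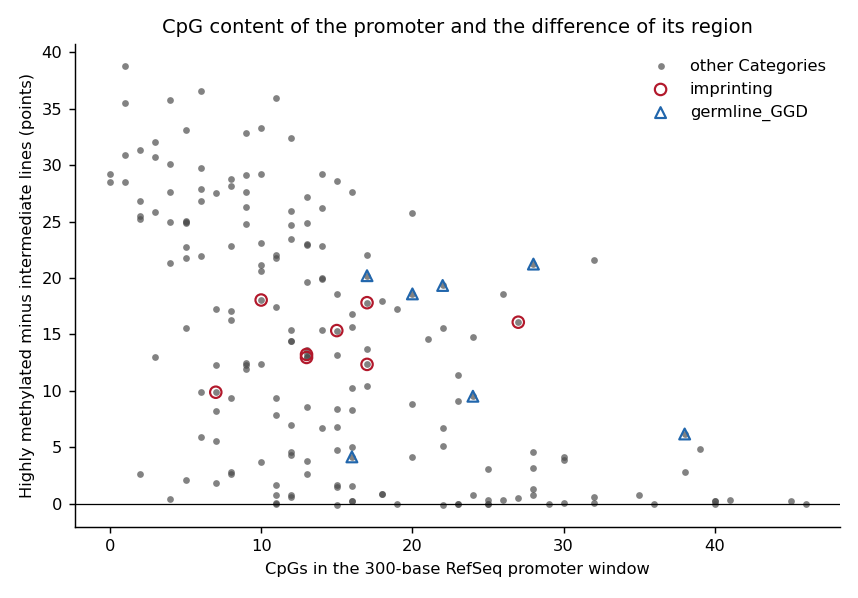
Difference of each region, highly methylated minus intermediate lines (y axis, percentage points), against the number of CpGs in its 300-base RefSeq promoter window (x axis), for 187 regions. Red circles mark the imprinting Category and blue triangles germline_GGD; windows with fewer than 5 CpGs have a median difference of 28.5 points and those with 30 or more a median of 0.31 points.

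The 7 germline_GGD windows had a median of 22 CpGs and a ratio of 0.80, and their regions had a median of 44.2% in highly methylated lines and 25.6% in intermediate lines. They were not alike, since Ddx4 had 38 CpGs and Tex19.1 a ratio of 0.58 with the low levels given above, and Mael had 22.2% in highly methylated lines and 12.7% in intermediate lines. The 8 windows of the imprinting Category had a median of 14 CpGs. TGCCGC, the hexamer bound by ZFP57 when methylated, was present on either strand in 6 of these 8 windows, against 18.2% of the 187 panel windows and 11.6% of all RefSeq promoters. TCCCGC, a core bound by E2F6, was present in 4 of the 7 germline_GGD windows, against 32.6% of the 187 panel windows, 39.5% of those that stayed under 5% and 19.98% of all promoters. It was not particular to germline_GGD, since 52.9% of the 17 aging_Meer windows had it too. In every other Category with such windows the share was 37.5% or less. A match describes the window only.

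The imprinting Category held few regions with a large difference. Its 23 regions had a median of 37.97% in highly methylated lines and 22.1% in intermediate lines, with a median difference of 15.3 points. Of these, 2 were higher by at least 20 points (8.70%, against 40.5% of all regions) and none was under 5% in both groups. To set them beside regions of like level, all regions at 15% to under 35% in intermediate lines were taken. In this band the 21 imprinting regions had a median of 37.97% (range 32.2% to 50.6%) in highly methylated lines and 22.1% in intermediate lines. The 202 other regions had a median of 50.1% (range 21.8% to 70.3%) in highly methylated lines and 25.01% in intermediate lines. The median difference was 15.2 points for the imprinting regions and 24.5 points for the others, and 146 of the 202 others were higher by at least 20 points.

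Line by line, the mean over the 23 imprinting regions lay below the mean over the 202 other regions in all 17 highly methylated lines, by 0.14 to 22.1 points (mean -9.97 ± 6.11, SD). In intermediate lines it lay below in 14 of 24, with a mean difference of -1.34 ± 5.59 points, and in the lines under 15% in 21 of 35, with -0.40 ± 4.804. Among B1 lines the same comparison gave -10.4 ± 6.71 points in 10 highly methylated lines and 1.35 ± 4.25 in 8 intermediate lines. Among B2 lines it gave -5.74 ± 4.06 points in 4 highly methylated lines and -1.70 ± 1.42 in 5 intermediate lines. B3B lines were not averaged in this way. Of the 7 intermediate B3B lines, all but B3Bd39 (23.1% in imprinting regions, 20.03% in the others) had the lower imprinting mean. The widest gap among them was in B3Bd15N, with 7.47% and 25.7%. The 2 highly methylated B3B lines were lower by 17.1 and 11.2 points. The band was itself cut on intermediate lines, which draws the means together in that group.

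**Figure D4:**
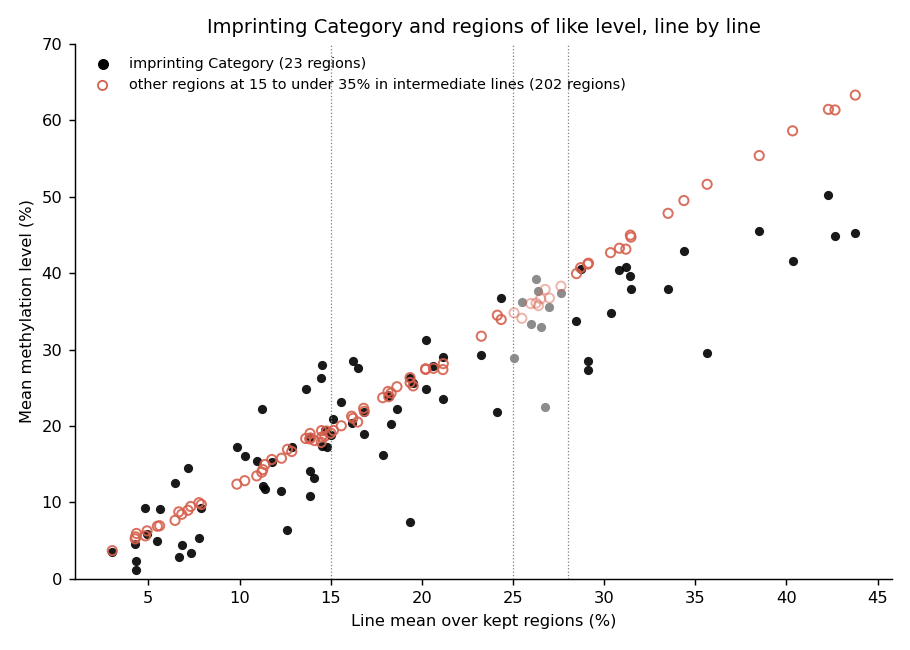
Mean methylation level of the 23 imprinting regions (filled) and of 202 other regions at 15% to under 35% in intermediate lines (open), in each of 85 lines (y axis, %), against the line's mean over kept regions (x axis, %). Dotted lines mark 15%, 25% and 28%, and paler points are the 9 lines between 25% and 28%; right of 28% every filled point lies below the open point of the same line.

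In the 5 lines with the highest means (38.5% to 43.8%), the imprinting regions averaged 41.6% to 50.2% per line, against 55.4% to 63.3% for the other regions. Single values over 60% made up 3.84% of the 391 imprinting values in highly methylated lines, against 25.9% of the 3401 values of the other regions. Between 25% and 60% lay 84.7% of the imprinting values and 66.7% of the others. Over the 937 CpGs of imprinting regions in the CpG table, the median level was 36.2% in highly methylated lines and 21.7% in intermediate lines. Over the 5 lines with the highest means, 21 of the 23 imprinting regions had a mean under 60%. The same count was not made for the other regions, so it does not set the imprinting regions apart.

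Within the imprinting Category, Igf2r and Kcnq1ot1 had the smallest differences. The Igf2r region (chr17:12742174-12742702), in the gene of a receptor that clears the growth factor IGF2, had 10.8%, 40.3% and 58.5% at the lowest, median and highest in highly methylated lines, against 6.10%, 30.1% and 44.7% in intermediate lines. The Kcnq1ot1 promoter (chr7:143295618-143296585), which drives a long RNA that silences neighbouring genes in mouse, had 22.97%, 41.6% and 53.1% in highly methylated lines, against 1.79%, 33.5% and 40.1% in intermediate lines. Their differences were 8.27 and 9.27 points, and in both regions the groups overlapped. Snurf, at the promoter of the Snrpn locus, differed by 9.87 points, and the region between Dlk1 and Meg3 (chr12:109527383-109530388) by 10.2 points. Mest, Meg3, Peg3 and Peg10 differed by 12.3 to 13.4 points.

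At the other end of this Category, both regions within the Zdbf2 gene had the largest differences. The region at chr1:63263781-63263926 had 16.9%, 45.03% and 69.6% at the lowest, median and highest in highly methylated lines, against a mean of 17.5% ± 11.2 in intermediate lines, a difference of 27.6 points. The region at chr1:63260549-63261295 differed by 22.5 points. Peg13 (chr15:72809272-72809627) reached the highest level, 55.9% ± 15.8 in highly methylated lines and 39.7% ± 14.7 in intermediate lines, and H19 followed with 50.6% ± 8 in highly methylated lines and 32.6% ± 7.07 in intermediate lines. Of the 15 single imprinting values over 60% in highly methylated lines, 14 were at Zdbf2 and Peg13.

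Imprinted genes had other regions on the panel outside the imprinting Category. Among 7 such regions, 4 were higher by at least 20 points (against 40.5% of all regions) and the median difference was 22.6 points. The Cancer Category regions of Magel2 (26.2 points), Meg3 (24.4 points), Peg10 (23.3 points) and Gnas (22.6 points) were the 4. Peg10 reached 82.9% ± 6.38 in highly methylated lines and 59.6% ± 11.02 in intermediate lines at this region (chr6:4755912-4756411), against 36.1% ± 8.92 in highly methylated lines and 22.7% ± 8.98 in intermediate lines at its imprinting region (chr6:4746963-4747868). The Meg3 promoter, printed above, had 13 measured CpGs that were higher by 8.51 to 17.1 points, and the 14 of Hymai were higher by 12.1 to 18.03 points. Both windows lie in regions of the imprinting Category. That of Meg3 also lies in a B6J vs 129 region, which is among the 7 and overlaps the Meg3 imprinting region. This B6J vs 129 region differed by 13.02 points, the least of the 7, against 12.95 points at the Meg3 imprinting region.

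The line labelled B1dB40, named after its values were seen, had the widest gap of the highly methylated lines between imprinting regions and other regions in the band. Its panel mean was 35.6%, and its imprinting mean of 29.5% was 22.1 points below that of the other regions. The next widest gap was 18.05 points, in B1dC17, and B3Ad37N (27.3%) and B1dB19 (28.6%) had lower imprinting means at lower panel means. B1dB40 had 54.02% at H19 and 60.4% and 66.5% at both Zdbf2 regions named above, but 26.3% at another region annotated to Zdbf2 and Gpr1 (chr1:63199879-63200976), 16.6% at Igf2r, 17.8% at Peg3 and 19.9% at Snurf. H19 and the somatic imprint at Zdbf2 are known to be methylated on the paternal copy, and Igf2r, Peg3 and the Snrpn locus on the maternal copy.

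The course of each region was then drawn over 3 levels, the 35 lines under 15% (mean 9.82%), the 24 intermediate lines (18.9%) and the 17 highly methylated lines (34.2%). A slope is the change of a region in points for each point of line mean, below (low to intermediate lines) and above (intermediate to highly methylated lines). Over all 787 regions the median slope was 0.81 below and 0.99 above, and 332 regions had the smaller slope above (42.2%). In the imprinting Category 20 of 23 regions had the smaller slope above, with medians of 1.24 below and 0.998 above. In the band of like level, 58 of the 202 other regions did, with medians of 1.34 below and 1.59 above. The slopes below and above share the intermediate lines, so that they are not independent of each other. Slopes were also taken inside each group, per point of a line's mean over all regions outside the Category. The imprinting mean was higher by 0.797 points across highly methylated lines and 0.804 across intermediate lines. For the mean of the other regions in the band it was 1.52 across highly methylated lines and 1.56 across intermediate lines. Those other regions are part of the mean they are set against and the imprinting regions are not, so these slopes are not alike in kind.

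Regions that were already high also had the smaller slope above. It was smaller above in all 31 regions at 50% or more in intermediate lines, and in 72 of 76 at 40% to under 50%. The median difference was 28.7 points at 30% to under 40%, 27.98 points at 40% to under 50%, and 25.1 points at 50% or more. A total of 18 regions averaged over 80% in highly methylated lines and none did in intermediate lines. The highest was the promoter region of Ppp1r14bl (chr1:23102003-23102503), with 73.2%, 86.9% and 94.9% at the lowest, median and highest in highly methylated lines, against 50.6%, 63.4% and 79.5% in intermediate lines. Arhgap24, a GTPase-activating protein gene, had 84.97% ± 5.68 in highly methylated lines and 61.99% ± 7.81 in intermediate lines.

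A region was said to level off where its slope below was at least 0.5 and its slope above less than 50% of that, and 13 regions did (1.65%). Of these, 5 were at 50% or more in intermediate lines, namely Gm6189, Wdfy3, Gm35790, Col25a1 and a region on chromosome 6 with no gene within 5 kb. At Wdfy3, a gene of selective autophagy, the levels were 40.8% in lines under 15%, 65.6% in intermediate lines and 84.1% in highly methylated lines. Igf2r and Kcnq1ot1 were 2 more. The others were Coro2a, Arhgef28, Fgf1, Lhx9, Acp1 and Zfp759, of which the last 3 were named after their values were seen, Lhx9 also being on the lineage list. The number that level off is small and moved between 4 and 125 over the alternatives tried, so the membership of this class is not firm.

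Steepening, a slope above of at least 0.5 and over 2 times the slope below, was seen in 26 regions (3.30%). Zfp64, a zinc finger gene, had 14.3% ± 11.8 in lines under 15%, 16.9% ± 9.49 in intermediate lines and 54.97% ± 24.8 in highly methylated lines. Its highly methylated lines ran between 21.98% and 91.1%, and 10 of 17 lay above the highest intermediate line. Rec114, a meiotic recombination gene, had 5.08% in lines under 15%, 11.2% in intermediate lines and 35.9% in highly methylated lines. Fkbp5, a glucocorticoid-responsive co-chaperone gene, had 5.89% in lines under 15%, 13.1% in intermediate lines and 38.7% in highly methylated lines. Iqgap2, A730056A06Rik, Arhgef38 and Nkx6-1 were further examples, with differences of 17.3 to 33.1 points.

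The highly methylated lines also differed among themselves. The median SD of a region over these lines was 8.34 points, against 5.53 points over intermediate lines. The rule set no upper bound for the highly methylated lines, and the line means had SDs of 5.32 points there and 2.68 points in intermediate lines. By Category, the median SD was largest for B6J vs 129, chosen by the authors for a strain difference. It was 11.7 points in highly methylated lines and 8.28 points in intermediate lines. For all kept regions at 10% to under 20% in intermediate lines it was 10.9 points in highly methylated lines and 5.68 points in intermediate lines. The Irak3 region of this Category (chr10:120168875-120169430), in the gene of a kinase that dampens Toll-like receptor signalling, had 2.80%, 22.4% and 79.95% at the lowest, median and highest in highly methylated lines, against 0%, 4.19% and 56.98% in intermediate lines. Lhx9 had the smallest difference of regions at 10% or more in intermediate lines, 5.92 points, with 3.74% to 68.2% in highly methylated lines and 2.08% to 72.7% in intermediate lines. Tep1, Ston1 and a region on chromosome 14 with no gene within 5 kb also had SDs over 22 points in highly methylated lines.

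In each line, the share of regions over 80% had a median of 2.43% in highly methylated lines (range 0.513% to 20.99%) and 0% in intermediate lines (highest 0.145%). The share of regions under 5% had a median of 23.6% in highly methylated lines (15.5% to 28.4%) and 30.8% in intermediate lines (23.7% to 37.8%). The order of regions was nearly the same at both levels, with a Spearman rho of 0.99 across the 787 regions, which share the lines and the capture.

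Chromosome X held 15 kept regions, with a median difference of 22.9 points and 10 higher by at least 20 points, against 40.5% of all regions. The sex of the lines is not given. The median level of the 15 regions was 60.4% in highly methylated lines and 35.97% in intermediate lines. For the 772 autosomal regions it was 30.2% in highly methylated lines and 14.4% in intermediate lines. The 114 kept regions at 30% to under 40% in intermediate lines had a median difference of 28.7 points, and 93.0% of them were higher by at least 20 points.

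The number of missing values, which the rule did not use, was compared by a test. A kept region without a value drops out of its line's mean, so this number is not fully apart from the rule. Of the 868 regions, 54.6 ± 20.4 had no value in highly methylated lines (SD, n = 17; lowest 29, median 54, highest 109) and 67.2 ± 32.5 in intermediate lines (n = 24; lowest 25, median 62, highest 173). The difference of -12.6 regions had p = 0.165 in a two-sided permutation test with 100000 resamples, and the groups overlapped. Lines with 2 sample titles had few missing values (25 to 43 regions, against 25 to 173 in the other lines), and 6 of the 17 highly methylated and 2 of the 24 intermediate lines had 2 titles. Without them the means were 65.2 regions in 11 highly methylated lines and 69.9 in 22 intermediate lines (permutation test, p = 0.711). Among B1 lines the difference was -11.8 regions (exact permutation test, p = 0.179), and among B2 lines it was 16.2 (exact permutation test, p = 0.429). Among B3B lines it was -35.4 (exact permutation test, p = 0.278).

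The 81 regions set aside for missing values had no part in the choice of lines. Of these, 23 had no value in any line. In the 48 with values in at least 3 lines of each group, 47 were higher in the highly methylated lines, 36 by at least 20 points. Of the 787 kept regions, 2.92% were lower and 40.5% were higher by at least 20 points. The median level of the 48 was 62.5% in highly methylated lines and 31.8% in intermediate lines, with a median difference of 26.1 points. Among kept regions at 30% to under 40% in intermediate lines, 93.0% were higher by at least 20 points. The 48 held 14 2-cell stage regions. These regions come from the same libraries as the values that chose the lines.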

How the data were processed

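Per the labels, genomic DNA of embryonic stem cells was converted enzymatically and captured with a Twist panel. Per the submitters' processing notes, the tools included Trim Galore 0.6.4, Bismark and Bowtie2, with mm10. The authors deposited methylation fractions (0 to 1) for 7917 CpGs and average fractions for 868 target regions, and the deposited tables' names state a coverage filter of 10. Read numbers were not used here, and with unknown depth no interval is given. Fractions are shown as percent. The deposited tables have 85 columns for 101 sample titles. A total of 44 columns match 1 title, and 41, of which 16 have 2 titles, were placed by the prefix of their name only. Nothing states that columns are separate animals, so p-values measure only their spread, which may be technical.

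A region was kept if 80% or more of the columns held a value there (787 regions), and column means over them set the groups. Group means, differences and slopes were computed in Python 3.11.15 with pandas 2.3.3, NumPy 2.4.6 and SciPy 1.17.1, and the class rules and the permutation test were tested on simulated data. Because of the way the groups were cut, methylation was not tested. Regions were given the RefSeq gene whose promoter or body they overlap, or the nearest within 5 kb. Exon and intron positions were not used here. Of the kept regions, 9 overlap another. The 596 kept regions with at least 1 CpG in the CpG table could be recomputed from it (Pearson r = 0.967 across values, a description). Regions named are the 12 with the largest difference, the 8 lowest and the 5 highest in highly methylated lines, the 10 that level off and 8 that steepen at the highest level, the 5 with the smallest difference from 10% up, the 5 with the largest SD, and those of the imprinting Category and the gene lists. Lines, rules and lists were chosen with earlier results of these data known.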

Additional observations from a re-analysis of the deposited data

Results flagged for a closer look

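Within each name group, the Category means and the missing values of the intermediate and highly methylated lines were searched for a line far from the others, where a group had 4 to 10 lines. Of 48 values searched, 5 stood apart, and some may do so by chance alone. The Category means of a line rise together, so they are not separate from each other. Among the 5 intermediate B2 lines, B2d22 had the highest mean of the 2-cell stage Category, 33.8%, and the highest of the B6J vs 129 Category, 25.1%. Its mean over all kept regions was also the highest of the 5, at 23.3%, against 18.1% to 20.2%. In the same group, B2d18 had the most regions without a value, 101. Among the 7 intermediate B3B lines, B3Bd38N had the highest Cancer mean, 27.5%, and the highest aging_Meer mean, 26.3%. Its mean over all kept regions was 24.1%, against 15.01% to 19.4% in the other 6, so these Category means go with the mean that set the groups.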

How the results depend on the processing

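The medians of Categories and gene lists moved mainly where the lines were limited to 1 name group. Of 366 values recomputed for the counts, medians and missing values, 319 were labelled as the same. For medians this meant a move of less than 1 SD between highly methylated lines, whatever the sign. For counts it meant a value within 1.5 times. For missing values it meant the same sign and the same side of 0.05 for p (permutation test). Among B2 lines the medians that moved by more than 1 SD between highly methylated lines were 17.7 points for 2-cell stage, 10.2 for germline_GGD, 0.848 for nPSC-associated and for naive pluripotency genes, and 15.4 for 2-cell stage genes. Among B3A lines (1 highly methylated line) they were 7.20 points over all regions, 10.7 for 2-cell stage, 7.77 for Cancer, 7.33 for aging_Meer, 2.49 for imprinting, 7.09 for 2-cell stage genes, 2.54 for imprinted genes and 12.3 for methylation machinery, with 114 regions higher by at least 20 points. Among B3B lines (2 highly methylated lines) they were 24.2 points over all regions, 37.1 for 2-cell stage, 22.01 for B6J vs 129, 27.97 for Cancer, 24.3 for aging_Meer, 26.3 for germline_Dahlet, 25.7 for imprinting, 49.6 for 2-cell stage genes, 20.5 for germline genes, 26.6 for imprinted genes, 10.5 for lineage transcription factors and 28.8 for methylation machinery. Fewer lines per group, and other gaps between the line means as given above for each name group, go with these subsets, and the cause was not tested.

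The regions that level off (13) and steepen (26) were the least stable. With intermediate lines of 15% to under 20% they numbered 21 and 58, with only regions measured in every line 7 and 16, with columns that match 1 title 23 and 65, and with columns without a final N 22 and 52. By name group they numbered 55 and 92 (B1), 39 and 65 (B2), 125 and 113 (B3A), and 37 and 86 (B3B). Averages from the CpG table left 4 that level off, and a slope above under 0.667 of that below gave 48. Under 2% in both groups in place of 5% left 94 of 156 unmethylated regions. For missing values, a bound of 30% for highly methylated lines gave a difference of -18.7 regions (permutation test, p = 0.0413) and B2 lines alone gave 16.2 regions (exact permutation test, p = 0.429), while p ran between 0.0413 and 0.993 over the alternatives. Leaving out lines with 2 titles, overlapping regions or the column B1dB37 were chosen after seeing the data. Without B1dB37, 315 regions were higher by at least 20 points, 14 levelled off and 26 steepened. The 48 named regions gave 723 values, of which 57 moved by 1 SD or more. No paired analysis was possible because replicate numbers only name the lines in order. Read depth is unknown, which limits the reading of single values.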
